A study of Mus musculus with 9 samples.

Results

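A set of 8 genes of cholesterol production was followed in neonatal rat ventricular cardiomyocytes (NRVMs) overexpressing Nrf1 or Nrf2. They were picked by symbol, with earlier results of these data known, as were the pathway lists used below. Counts of these genes beside the share of all genes are therefore descriptive only. Of the set, 8 of 8 were found among the 14819 genes listed for LacZ and Nrf1, the 14986 for LacZ and Nrf2 and the 14908 for both factors. The set holds 6 synthesis enzymes (*Hmgcs1*, *Idi1*, *Fdft1*, *Sqle*, *Lss*, *Dhcr7*) and a pair of regulators, *Insig1* and *Srebf2*. None of the 8 encodes an uptake receptor, so uptake is described from a separate list.

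NRVMs were isolated from newborn Sprague-Dawley rats, cultured for 48 h and infected with an adenovirus for LacZ, Nrf1 or Nrf2 at an MOI of 50, and RNA was collected 48 h later. LacZ, a bacterial enzyme with no role in these cells, served as the control, so the 3 groups share the viral infection. There were 3 libraries in each group. The sources used here do not say whether these came from separate cell isolations, so the p-values measure the spread between these libraries, which may be technical.

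Cells make cholesterol from acetyl-CoA through mevalonate, isoprenoids and squalene, and then through a series of sterols. When sterols in the endoplasmic reticulum are low, Scap carries the membrane-bound factor SREBP-2, the product of *Srebf2*, to the Golgi, where proteases free its active part. That part switches on genes of synthesis and uptake and *Insig1*, and Insig1 in turn holds Scap back when sterols are plentiful. Nrf1 is also anchored in the endoplasmic reticulum membrane and has been described as a cholesterol sensor in liver, whereas Nrf2 is known for control of antioxidant genes and is held in check by Keap1.

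The deposited values are the authors' means over the 3 libraries of a group, in normalized reads (reads divided by a size factor for the library). Each group is listed against both others with different size factors, and the whole read numbers of its 3 libraries were solved from these paired means. The libraries so recovered are called a, b and c, in falling order of their size factor, and cannot be tied to the replicate numbers in the labels. They held 7894221 to 11960378 reads on solved genes, and the 8 genes had 165 to 4695 reads per library. The coefficient of variation of the 8 genes within a group lay between 0.595% and 10.6%, with a median of 2.91%. Values per library are given on 1 scale shared by the 9 libraries. Differences are on the scale of log2(normalized reads + 1) and were tested with limma, with Benjamini-Hochberg adjustment over all genes. A gene is said to rise or fall where its adjusted p was under 0.05.

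*Nfe2l2*, which encodes Nrf2, checked the labels of the Nrf2 samples. It stood at 3455 ± 49.5 normalized reads in LacZ samples and at 74589.9 ± 6129 in Nrf2 samples (SD, n = 3 each). In Nrf1 samples it was 2859 ± 40.3 (SD, n = 3). The gene that encodes Nrf1 was not analysed here. Of 10 cardiomyocyte markers 9 were measured and none was at 0, and their summed level was 126822 to 145761 normalized reads in LacZ libraries, 137983 to 139706 in Nrf1 libraries and 151697 to 155356 in Nrf2 libraries. These sums are set by the most abundant genes. One by one, 2 of the 9 rose and 5 fell with Nrf1 (median -0.21), and 6 rose and 2 fell with Nrf2 (median 0.23). With Nrf1, *Ryr2* and *Actc1* (cardiac actin) rose by 0.83 and 0.64, while *Tnni3*, *Myh7* and *Myl2*, of the contractile apparatus, were at -0.96, -1.07 and -1.0. The cultures also held other cells. The 10 fibroblast markers summed to 122831 to 128759 normalized reads in LacZ libraries, 31327 to 33754 in Nrf1 libraries and 64054 to 69172 in Nrf2 libraries, and 10 of 10 fell with Nrf1 and 9 of 10 with Nrf2. The 10 leukocyte markers went from 1672 to 2470 down to 984 to 1012 with Nrf1 and 942 to 1033 with Nrf2, where 8 and 7 of 10 fell. *Csf1r* rose by 0.45 with Nrf1. That call was lost without LacZ library a or c or Nrf1 library a, b or c (limma, adjusted p = 0.0645 to 0.128). The falls of *Col1a2* with Nrf1 and of *Fbln1*, *Pdgfra* and *Itgam* with Nrf2 were also lost without certain single libraries. Among cardiomyocyte markers this held for *Tnnt2* with either factor and for *Actc1* and *Myl2* with Nrf2. The 8 endothelial markers went from 4234 to 4300.2 down to 2511 to 2572 with Nrf1 and 2288 to 2610.5 with Nrf2. Most of this sum was *Eng*, with a mean of 2894 of 4257 normalized reads in LacZ samples. One by one, 7 of the 8 fell with Nrf1 and 6 with Nrf2. *Kdr* was at 0.15 with Nrf1 and *Tek* at 0.21 with Nrf2, and neither passed the test. The fall of *Emcn* with Nrf2 was lost without LacZ library a or c. In bulk samples, fewer cells of a type and less RNA per cell cannot be told apart. Between the factors, 9 of 10 fibroblast and 6 of 9 cardiomyocyte markers were higher in Nrf2 than in Nrf1 libraries (medians 0.90 and 0.42). In the same comparison 1 and 2 were lower. The calls of *Col1a2*, *Lum*, *Fbln1* and *Tcf21* were lost there without certain single libraries. Of 10 leukocyte markers 2 were higher and 2 lower, and of 8 endothelial markers 1 was higher and 1 lower. Fibroblast and cardiomyocyte marker values thus move with each of the 3 comparisons, the direct one included. Leukocyte and endothelial marker values mostly differ from LacZ only. The part of any of these markers in the results on cholesterol genes was not tested.

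The first question was whether either factor changed the 8 genes, and the changes found were modest. Against LacZ, 5 of the 8 genes rose and 0 fell in Nrf2 samples, while 23.7% of all genes tested rose and 20.9% fell. In Nrf1 samples 4 of the 8 rose and 1 fell, against 27.2% and 26.8% of all genes. Of genes whose mean reached 100, a level each of the 8 exceeds, 32.4% rose and 26.7% fell with Nrf2, and 40.5% rose and 30.5% fell with Nrf1. The median difference of the 8 genes was 0.21 with Nrf2 and 0.19 with Nrf1, beside -0.01 and -0.03 over all genes and 0.02 and 0.05 over those with a mean of at least 100. None of the 8 had a ratio of deposited means past 1.5 in any comparison, a cutoff that 35.4% of all genes passed for Nrf1 against LacZ, 26.9% for Nrf2 against LacZ and 24.2% for Nrf2 against Nrf1. Of genes with a mean of at least 100, 23.6%, 14.3% and 11.7% passed it. Both comparisons against LacZ share the LacZ libraries and are not independent of each other.

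**Figure D1:**
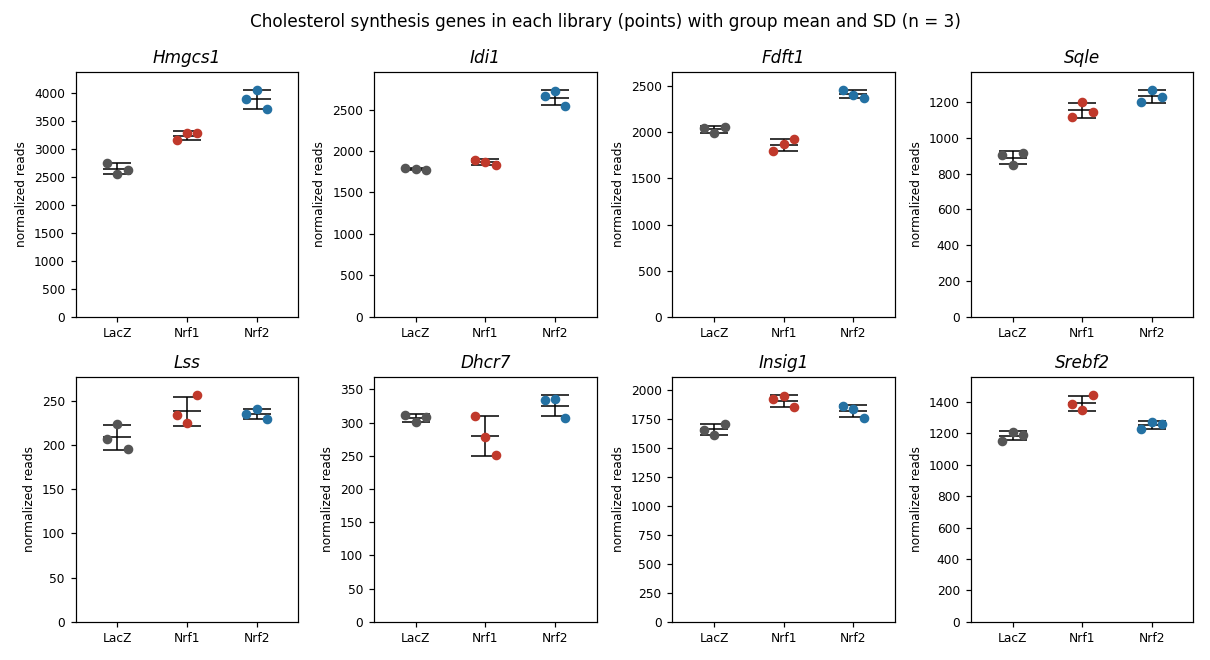
Normalized reads (y axis, from 0, on the scale shared by 9 libraries) of the 8 genes in the LacZ, Nrf1 and Nrf2 groups (x axis); points are libraries a, b and c from left to right, the middle line is the group mean and the bars are the SD (n = 3). The Nrf2 libraries of *Hmgcs1*, *Idi1* and *Fdft1* lie above all others, whereas *Srebf2* is highest in the Nrf1 libraries.

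*Hmgcs1* encodes the cytosolic HMG-CoA synthase, an early enzyme of the mevalonate pathway. Its level was 2749.7, 2554 and 2631 normalized reads in LacZ libraries a, b and c, 3155, 3284 and 3285 in Nrf1 libraries and 3890.0, 4059 and 3725 in Nrf2 libraries. The 3 groups did not overlap and their order was LacZ, Nrf1, Nrf2, each step larger than the spread between libraries. The ratio of deposited means was 1.22 for Nrf1 and 1.47 for Nrf2 against LacZ. The log2 difference was 0.29 (SE 0.039, adjusted p = 6.93e-06) with Nrf1 and 0.56 (SE 0.041, adjusted p = 2.33e-08) with Nrf2. Compared directly, Nrf2 samples were higher than Nrf1 samples by 0.26 (SE 0.031, adjusted p = 2.19e-06).

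*Idi1* encodes isopentenyl-diphosphate isomerase, which supplies the activated isoprene units. LacZ libraries a, b and c held 1798, 1786 and 1777 normalized reads, Nrf1 libraries 1898, 1873 and 1828, and Nrf2 libraries 2671, 2725 and 2544. All Nrf1 libraries were just above all LacZ libraries, yet the difference of 0.06 did not pass the test (95% interval -0.02 to 0.14, adjusted p = 0.198). With Nrf2 it rose by 0.57 over LacZ (SE 0.039, adjusted p = 9.4e-09), the largest difference from LacZ among the 8 genes. Nrf2 samples exceeded Nrf1 samples by 0.50 (SE 0.032, adjusted p = 7.66e-10), or 1.41 times in the deposited means.

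*Fdft1* encodes squalene synthase, the first enzyme committed to sterols. Its level was 2052, 1991 and 2058 normalized reads in LacZ libraries, 1796, 1873 and 1929 in Nrf1 libraries and 2462, 2408 and 2375 in Nrf2 libraries. Here the groups were ordered Nrf1, LacZ, Nrf2 with no overlap, and *Fdft1* was the one gene of the 8 that fell with Nrf1. The fall with Nrf1 was small, at -0.13 (SE 0.040, adjusted p = 0.0129, ratio 0.916), and it did not pass the test without LacZ library a, LacZ library c or Nrf1 library a (adjusted p = 0.0503 to 0.0609). The rise with Nrf2 over LacZ was 0.25 (SE 0.037, adjusted p = 4.8e-05), and Nrf2 exceeded Nrf1 by 0.37 (SE 0.032, adjusted p = 4.61e-08).

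*Sqle* encodes squalene epoxidase, the oxygen-requiring step that follows squalene. It stood at 906, 846 and 915 normalized reads in LacZ libraries, 1119, 1199 and 1145 in Nrf1 libraries and 1199, 1269 and 1229.7 in Nrf2 libraries. Both overexpressing groups lay clear of LacZ and next to each other. The log2 difference from LacZ was 0.37 with Nrf1 (SE 0.048, adjusted p = 5.16e-06), the largest of the 8 genes in that comparison, and 0.47 with Nrf2 (SE 0.047, adjusted p = 6.49e-07). Nrf2 and Nrf1 samples differed by 0.09 (95% interval 0.01 to 0.17), with an adjusted p of 0.0634. This comparison passed the threshold when genes with a mean under 100 were left out (adjusted p = 0.0481), when the ratios were re-centred on the median gene (adjusted p = 0.0129) and without Nrf1 library b (adjusted p = 0.0377).

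*Lss* encodes lanosterol synthase, which folds the epoxide into the first sterol, and *Dhcr7* encodes the reductase that turns 7-dehydrocholesterol into cholesterol. These were the least abundant of the 8 in reads and none of their differences from LacZ passed the test. *Lss* was at 207, 223 and 196 normalized reads in LacZ libraries, 234, 224 and 256 in Nrf1 libraries and 235, 241 and 229 in Nrf2 libraries. All 6 overexpressing libraries were above the LacZ libraries, with differences of 0.19 with Nrf1 (95% interval 0.0021 to 0.37, adjusted p = 0.0824) and 0.17 with Nrf2 (-0.0021 to 0.35, adjusted p = 0.103). Without LacZ library b the difference with Nrf2 was 0.22 and passed (adjusted p = 0.0385). The Nrf1 and Nrf2 libraries of *Lss* overlapped, at a difference of -0.02 (95% interval -0.18 to 0.14).

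*Dhcr7* was at 312, 301 and 308 normalized reads in LacZ libraries, 311, 278 and 252 in Nrf1 libraries and 334, 335 and 307 in Nrf2 libraries. Its Nrf1 libraries spread more than those of any other gene of the 8, and each pair of groups overlapped. The difference from LacZ was -0.14 with Nrf1 (95% interval -0.31 to 0.03, adjusted p = 0.167) and 0.08 with Nrf2 (-0.06 to 0.23, adjusted p = 0.351). Nrf2 exceeded Nrf1 by 0.22 (adjusted p = 0.0299), a call that was lost without any 1 of Nrf1 libraries b and c or Nrf2 libraries a, b and c (adjusted p = 0.0834 to 0.183). Without Nrf1 library a the fall with Nrf1 became -0.22 and passed (adjusted p = 0.0444).

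*Insig1* encodes the endoplasmic reticulum protein that retains Scap. Its level was 1656, 1612 and 1708 normalized reads in LacZ libraries, 1916, 1944 and 1848 in Nrf1 libraries and 1858, 1833 and 1756 in Nrf2 libraries. Every overexpressing library was above every LacZ library, and the Nrf1 and Nrf2 libraries overlapped. *Insig1* rose by 0.20 with Nrf1 (SE 0.041, adjusted p = 0.000617) and by 0.13 with Nrf2 (SE 0.041, adjusted p = 0.0163). The latter did not pass without Nrf2 library a or b (adjusted p = 0.0826 and 0.0688). Nrf2 against Nrf1 gave -0.07 (adjusted p = 0.0859).

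*Srebf2* encodes SREBP-2, the factor that drives the synthesis enzymes. It stood at 1153, 1208 and 1192 normalized reads in LacZ libraries, 1384, 1349.9 and 1443 in Nrf1 libraries and 1227, 1274 and 1259.9 in Nrf2 libraries. Its order was LacZ, Nrf2, Nrf1, with no overlap between groups, although LacZ and Nrf2 lay close together. *Srebf2* rose by 0.23 with Nrf1 (SE 0.043, adjusted p = 0.000244, ratio 1.17). With Nrf2 the difference from LacZ was 0.08 (95% interval -0.0076 to 0.17, adjusted p = 0.130). The direct difference of Nrf2 from Nrf1 was -0.16 (SE 0.036, adjusted p = 0.00175).

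**Figure D2:**
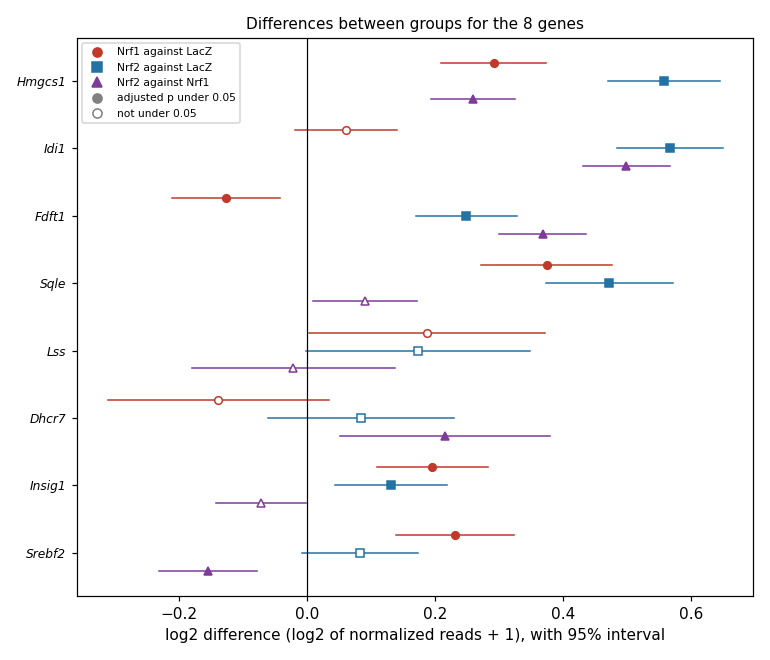
Log2 differences (x axis, log2 of normalized reads + 1) of the 8 genes (y axis) for Nrf1 against LacZ (circles), Nrf2 against LacZ (squares) and Nrf2 against Nrf1 (triangles), with 95% intervals; filled symbols have an adjusted p under 0.05. *Idi1* and *Fdft1* show the widest gaps between Nrf1 and Nrf2, and the triangle of *Srebf2* lies left of 0 at -0.16.

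In the direct comparison of Nrf2 with Nrf1, 4 of the 8 genes were higher in Nrf2 samples (*Hmgcs1*, *Idi1*, *Fdft1*, *Dhcr7*) and 1, *Srebf2*, was lower. Over all genes tested, 24% were higher and 23.3% lower, and among those with a mean of at least 100 it was 28.6% and 35.4%. The median difference of the 8 genes was 0.15, beside 0.02 over all genes and -0.03 over those with a mean of at least 100. By ratio of deposited means the 8 genes ran from 0.898 for *Srebf2* to 1.41 for *Idi1*. The number of the 8 genes past the test, in either direction, was 5 in each comparison and 4 to 6 when single libraries were left out.

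The rest of the synthesis pathway was read from a list of 20 enzymes, 6 of which are among the 8 genes. With Nrf2, 12 of 20 rose and 1 fell, with a median difference of 0.26. With Nrf1, 5 rose and 3 fell, with a median of 0.04, shares below the 27.2% and 26.8% of all genes. The 12 that rose with Nrf2 stand beside 23.7% of all genes. Nrf2 against Nrf1 had 9 higher and 1 lower, with a median of 0.17, beside 24% and 23.3% of all genes. Without the 6 enzymes already described, the counts were 8 up and 1 down with Nrf2, and 3 up and 2 down with Nrf1, of 14. Of the 8 enzymes listed before squalene synthase, 6 rose and 0 fell with Nrf2, and 1 rose and 0 fell with Nrf1. These include *Ggps1*, which is on a side branch and was not called with either factor. Among these rises with Nrf2, that of *Mvk* did not pass without LacZ library a, b or c or Nrf2 library a or b (limma, adjusted p = 0.0525 to 0.155). That of *Pmvk* did not pass without Nrf2 library a or b (adjusted p = 0.0526 to 0.0566). Of the 12 from squalene synthase on, 6 rose and 1 fell with Nrf2, and 4 rose and 3 fell with Nrf1.

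*Fdps*, which makes farnesyl diphosphate and stands next to *Idi1* in the pathway, rose with Nrf2 by 0.47 (adjusted p = 6.36e-08), and was at 0.01 with Nrf1 (adjusted p = 0.833).

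Of the later sterol enzymes, *Msmo1*, a sterol demethylation enzyme, rose by 0.40 with Nrf2 and by 0.26 with Nrf1 (adjusted p = 7.9e-07 and 6.3e-05). *Cyp51*, the lanosterol demethylase, went in opposite directions. Its level was 2962, 2998 and 2962 normalized reads in LacZ libraries, 2274, 2332 and 2301 in Nrf1 libraries and 3400.3, 3234 and 3196 in Nrf2 libraries. That is a fall of -0.37 with Nrf1 (adjusted p = 1.33e-07) and a rise of 0.14 with Nrf2 (adjusted p = 0.00558), and the same split as in *Fdft1*. *Sc5d*, the sterol desaturase acting before *Dhcr7*, rose most with Nrf1 of these 20 enzymes. It was at 703, 698 and 697 normalized reads in LacZ libraries, 1292, 1242 and 1276 in Nrf1 libraries and 925, 906 and 898 in Nrf2 libraries. The rise was 0.86 with Nrf1 (adjusted p = 6.72e-11, ratio 1.81) and 0.38 with Nrf2 (adjusted p = 5e-06), and the direct difference of Nrf2 from Nrf1 was -0.49 (adjusted p = 6.53e-09).

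**Figure D3:**
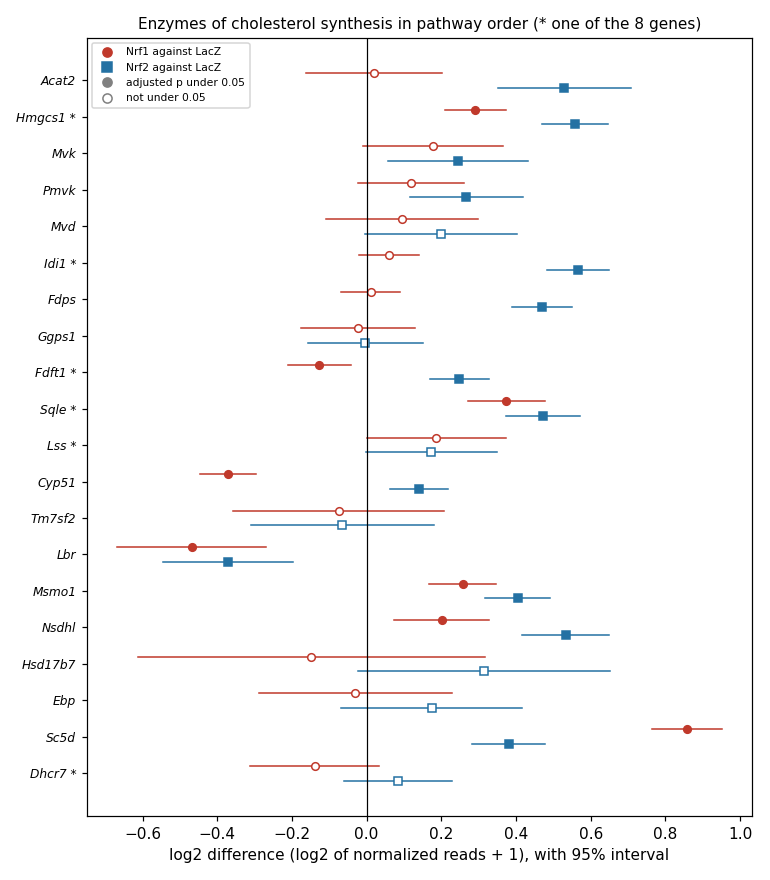
Log2 differences from LacZ (x axis, log2 of normalized reads + 1) of the 20 synthesis enzymes in pathway order, with *Ggps1* of a side branch placed before *Fdft1* (y axis, an asterisk marks 6 of the 8 genes). Nrf1 is shown by circles and Nrf2 by squares, with 95% intervals, and filled symbols have an adjusted p under 0.05. Of the 8 enzymes from *Acat2* to *Ggps1*, 6 have filled squares and 1 has a filled circle, and *Sc5d* has the circle farthest to the right, at 0.86.

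The regulators of SREBP were measured for 10 of 11 listed genes, *Insig1* and *Srebf2* among them. With Nrf1 5 rose and 3 fell, with Nrf2 2 rose and 1 fell, and Nrf2 against Nrf1 had 0 higher and 3 lower. Of all genes, 27.2% rose and 26.8% fell with Nrf1, 23.7% and 20.9% with Nrf2, and 24% and 23.3% were higher and lower in the direct comparison, so the counts with Nrf2 are no higher than the share over all genes. *Srebf1*, which encodes the SREBP better known for fatty acid synthesis, moved against *Srebf2* in Nrf1 samples, with a fall of -0.23 (adjusted p = 0.00986). That call was lost without LacZ library b or c or Nrf1 library a or c (adjusted p = 0.0698 to 0.0771), and with Nrf2 the difference was -0.18 (adjusted p = 0.0966). *Scap*, the escort of SREBP, fell by 0.16 on the log2 scale with either factor (adjusted p = 0.0216 in Nrf1 and 0.0277 in Nrf2 samples), which did not pass without Nrf1 library b, or without Nrf2 library a or b (adjusted p = 0.0523 to 0.0601). *Insig2*, the partner of *Insig1*, did not pass the test (0.13 and 0.23, adjusted p = 0.5 and 0.226). *Mbtps2*, another of the 10, had a difference of -0.35 with Nrf1 (limma, adjusted p = 0.0187). That fall did not pass without LacZ library b or Nrf1 library a or c (adjusted p = 0.0506 to 0.0590).

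Uptake and trafficking was a list of 9 genes. With Nrf1 1 rose and 5 fell, with Nrf2 1 rose and 5 fell, and the direct comparison had 6 higher and 1 lower in Nrf2 samples, beside the same shares of all genes (27.2% and 26.8%, 23.7% and 20.9%, 24% and 23.3%). *Lrp1*, a large receptor for lipoprotein remnants and other ligands, had the largest fall of these 9 genes with either factor. It went from 6922, 7574 and 7234 normalized reads in LacZ libraries to 2755, 2869 and 2581 with Nrf1 and 4678, 4388 and 4435 with Nrf2. The differences were -1.41 and -0.69 (adjusted p = 1.46e-13 and 1.68e-09). The Nrf2 libraries lay between the other groups. So did the summed fibroblast markers, though *Tcf21*, a marker among them, was lowest with Nrf2 (mean 76.8 in LacZ, 40.8 in Nrf1 and 21.6 in Nrf2 samples). The part of these markers in the values of *Lrp1* was not tested. *Npc1* and *Npc2*, which pass cholesterol out of the lysosome, fell by 0.50 and 1.00 on the log2 scale with Nrf1 (adjusted p = 4.78e-06 and 1.43e-11). With Nrf2 *Npc2* fell by 0.45 (adjusted p = 7.07e-07) and *Npc1* was at 0.07 (adjusted p = 0.368).

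**Figure D4:**
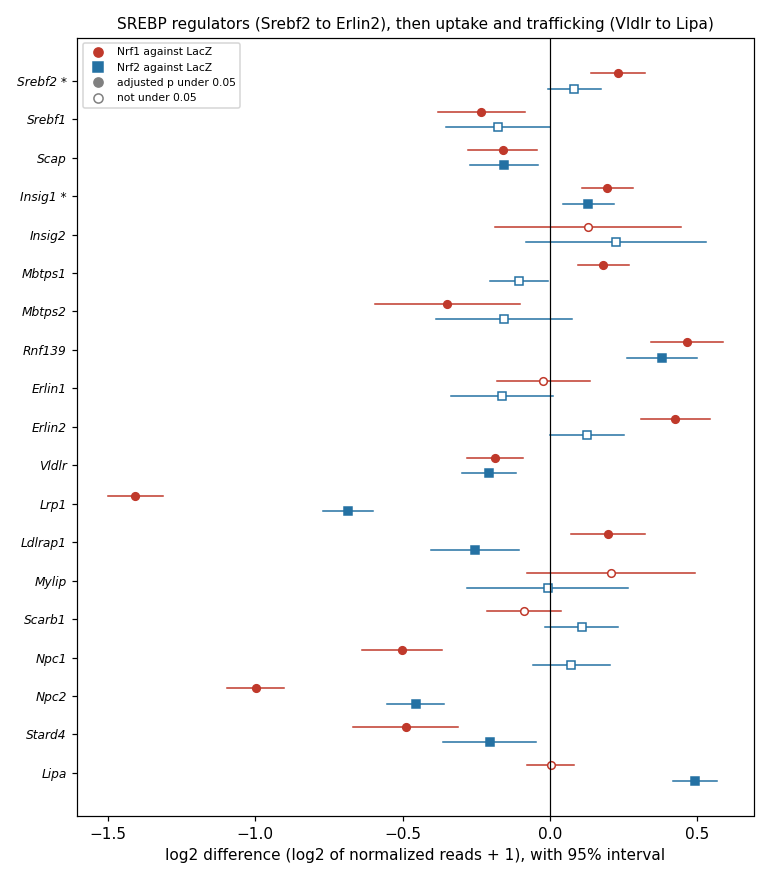
Log2 differences from LacZ (x axis, log2 of normalized reads + 1) of 10 SREBP regulators followed by 9 uptake and trafficking genes (y axis, an asterisk marks *Insig1* and *Srebf2*) with Nrf1 (circles) and Nrf2 (squares) and 95% intervals; filled symbols have an adjusted p under 0.05. *Srebf2* and *Srebf1* have filled circles on opposite sides of 0, and *Lrp1* is at -1.41 and -0.69.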

How the data were processed

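RNA of NRVMs was sequenced by the authors as stranded single-end mRNA libraries, checked with FastQC 0.11.4, aligned to rat Rnor 6.0 with HISAT2 2.0.4, cleared of duplicate reads with SAMtools 0.1.18 and counted per gene with featureCounts 1.6.0. The labels name mouse as the organism, while the paper's methods name rat cells and the rat genome. The signal in each of the 3 deposited tables is the authors' mean, per group, of read counts divided by size factors. The tables also hold the authors' fold changes and p-values, which were not used, although the methods name edgeR 3.20.5 and the columns have the layout of DESeq. There were 0 unused columns of single samples.

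Reads per library were not read from the files but solved: each group's 2 means per gene fix 3 whole read numbers. A unique solution was found for 14678 of 14679 genes in LacZ, 14579 of 14579 in Nrf1 and 14746 of 14746 in Nrf2 samples, 14442 of them in all groups, and none was found for 1500 altered means per group. The tolerance for means under 10 was set after the files were seen. limma 3.58.1 (R 4.3.3) with a trend was run on log2(value + 1) for each pair of groups. It was tested on simulated data, in which the share of wrong calls was above the threshold, mostly at means under 10. Changes as small as those of most of the 8 genes were mostly not found there. The simulation changed far fewer genes than were called in the real data, which makes the adjusted threshold stricter. Its rates therefore do not carry over to these tests. A missing call still does not show that a gene is unchanged. No 2 libraries agreed within sampling noise (chi-square per degree of freedom 1.50 to 5.00). Named were the 8 genes, 8 further genes, genes of the pathway lists past a ratio of 1.5, and the 5 genes nearest to the medians of the 8. *Nfe2l2* was added as a check of the labels, *Mvk*, *Pmvk* and *Mbtps2* for calls that depended on single libraries, and some cell type markers. The members and lists were chosen with earlier results of these data known. A planned search of promoters was not run, since the reference at hand is of mouse. The gene encoding Nrf1 and some genes of the pathway lists are not reported here.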

Additional observations from a re-analysis of the deposited data

How the results depend on the processing

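Of 320 values of the 8 genes under other settings, 303 were unchanged, 10 no longer passed, 5 newly passed and 2 changed sign. A tested value was unchanged if it kept its direction and its side of the threshold. Some values were log2 ratios of the deposited means, which have no p-value. These counted as unchanged if they kept their direction and lay within the SE of the main difference. Both sign changes were of *Lss* in Nrf2 against Nrf1, which was 0.0122 after re-centring on the median gene and ran from -0.0639 to 0.0315 when single libraries were left out. Of 579 values of the 15 other named pathway genes, 552 were unchanged by the same rule, 8 no longer passed and 19 changed sign, the latter all values that had not passed. After re-centring these were 0.0315 for *Scap* in Nrf2 against Nrf1 (0.0021 with the 9 libraries in 1 fit), -0.0432 for *Fdps* with Nrf1 and -0.0065 for *Nr1h2* with Nrf2. Without single libraries the values ran from -0.0075 to 0.0315 for *Fdps* with Nrf1, from -0.0514 to 0.0419 for *Abca1* and -0.0166 to 0.0568 for *Nr1h2* with Nrf2, and, in Nrf2 against Nrf1, from -0.0213 to 0.1377 for *Srebf1*, -0.0284 to 0.0147 for *Scap*, -0.005 to 0.1538 for *Cyp27a1* and -0.0304 to 0.4886 for *Ch25h*. Voom, the fit of 9 libraries, the re-centring of test calls and the minimum means of 10 and 100 for test calls were chosen after seeing the data.

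Leaving out 1 library at a time left 4 to 5, 4 to 6 and 4 to 5 of the 8 genes past the test for Nrf1 against LacZ, Nrf2 against LacZ and Nrf2 against Nrf1, 7 to 8, 11 to 13 and 9 to 10 of the 20 enzymes, and 6681 to 7008, 5014 to 5781 and 5591 to 6016 of all genes. In the same order, a cutoff of 25% above the lower mean gave 1, 3 and 2 of the 8 genes, 4, 9 and 8 enzymes and 7914, 6655 and 6298 of all genes, where the cutoff of 50%, a ratio of 1.5, gave 0, 0 and 0, 1, 0 and 0, and 4931, 3806 and 3393. A ratio cutoff of 2 gave 0 enzymes in each comparison and 2574, 1933 and 1661 of all genes. Of 8560, 8668 and 8655 genes with a mean of at least 100, 2017, 1239 and 1014 passed 1.5, and of genes with a mean of at least 10, 2394 for Nrf2 against LacZ and 2001 for Nrf2 against Nrf1. The cutoffs and minimum means change these counts by construction. No paired analysis was possible because the recovered libraries cannot be tied to the replicate numbers in the labels.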

Other observations

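Genes of cholesterol efflux, esterification and conversion formed a list of 9. With Nrf1 3 rose and 4 fell, with Nrf2 2 rose and 5 fell, and Nrf2 against Nrf1 had 3 higher and 3 lower, beside 27.2% and 26.8%, 23.7% and 20.9%, and 24% and 23.3% of all genes. *Nr1h2*, which encodes the liver X receptor beta, a sensor of oxysterols, was at 414, 457 and 414 normalized reads in LacZ libraries, 805, 743 and 724 in Nrf1 libraries and 437, 432 and 421 in Nrf2 libraries. It rose by 0.82 with Nrf1 (limma, adjusted p = 7.23e-09) and was at 0.01 with Nrf2 (adjusted p = 0.936), and the direct difference was -0.82 (adjusted p = 5.21e-10). *Abca1*, the exporter of cholesterol to apolipoprotein, rose by 0.21 with Nrf1 (adjusted p = 0.000319) and was at -0.01 with Nrf2 (adjusted p = 0.936). *Apoe* fell by 0.88 and 0.57 on the log2 scale with Nrf1 and Nrf2 (adjusted p = 1.38e-09 and 8.97e-07). *Cyp27a1* and *Ch25h*, which make oxysterols, had differences of -0.63 and -1.76 with Nrf1 and of -0.55 and -1.55 with Nrf2. Each of these passed the test. *Ch25h* was low, however, with 45, 53 and 35 reads in LacZ libraries. It had 10, 21 and 11 reads in Nrf1 libraries and 20, 23 and 12 in Nrf2 libraries. The fall of *Cyp27a1* with Nrf2 did not pass without Nrf2 library b (adjusted p = 0.0545). In the same comparisons 10 and 9 of 10 fibroblast markers and 8 and 7 of 10 leukocyte markers fell. *Csf1r* was higher by 0.45 with Nrf1, a call that depended on single libraries. So did the falls of *Col1a2* with Nrf1 and of *Fbln1*, *Pdgfra* and *Itgam* with Nrf2. The part of these markers in the values above was not tested.

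The 8 genes had median differences of 0.19, 0.21 and 0.15 for Nrf1 against LacZ, Nrf2 against LacZ and Nrf2 against Nrf1. Of all other genes whose mean over the 9 libraries reached 100, *Crip2*, *Fer*, *Cables1*, *Nsun2* and *Hspe1* lay nearest to these 3 values, at Euclidean distances of 0.082 to 0.0837. Their differences were 0.14 to 0.15 with Nrf1, 0.25 to 0.27 with Nrf2 and 0.1 to 0.12 between the factors.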
